A study of Homo sapiens with 41 samples.

Results

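The second phase of the serum response of T98G cells was examined, from 20, 30 and 40 min to 50, 60 and 70 min after serum was given back. T98G is an established human glioblastoma line whose cells stop dividing without serum and re-enter the cell cycle together when it returns. All cells had been kept without serum for 72 h and were then given medium with 20% fetal calf serum, and total RNA depleted of rRNA was sequenced every 10 min up to 400 min, from cells seeded separately for each time point. The 3 libraries of 50 to 70 min were compared with the 3 libraries of 20 to 40 min, 6 of the 41 libraries in the series. With 1 library at each time point, the neighbouring libraries of a window stood in for replicates, so that drift within the windows counted as error in the test. The p-values therefore measure spread along a single course and not between repeated cultures.

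Serum growth factors activate ERK signalling, and within minutes existing transcription factors such as SRF and CREB switch on the immediate early genes, among them FOS, JUN and EGR1. Many of these encode further transcription factors or feedback inhibitors, their mRNAs are short-lived, and several are shut off again within the first hours. Later genes follow as the newly made factors appear, or simply because a long gene takes more time to be transcribed and spliced.

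The 6 libraries held 18206982 counts at 20 min to 64948114 at 70 min, and a single count in the smallest corresponded to 2.24 normalized counts. Spike-in sequences took 1.45% to 1.83% of the counts in the earlier window and 1.76% to 2.17% in the later window. Of the 14 glial and glioblastoma markers, vimentin, CD44 and tenascin-C mRNAs were abundant, with 39481 to 45892 normalized counts of VIM, whereas AQP4 and SOX2 were at 0 in all 6 libraries and GFAP did not exceed 6.23. Of 18 markers of other cell types, RBFOX3, MOG, CDH1, KRT5 and HBB were at 0 in all 6 libraries. CD68 (1864 to 2363) and SNAP25 (442 to 561) were the only markers of that list above 100. Of the 9 glial markers and 9 markers of other cell types with enough counts, 0 passed the window test in either direction.

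Of 21629 genes tested, 257 rose between the windows and 34 fell, at an adjusted p below 0.05 in edgeR's quasi-likelihood test with Benjamini-Hochberg adjustment, which is 1.19% and 0.157% of the genes. The rising genes comprised 200 protein-coding genes, 36 lncRNAs and 21 of other annotation classes, and the falling genes 23, 7 and 4. The median log2 change was 1.05 among the rising genes, -0.76 among the falling genes and -0.01 over all genes. A smooth curve of time through all 41 libraries, tested at the same points, placed 2333 genes higher (10.8%) and 2238 lower (10.3%), and it held 256 of the 257 rising genes and all 34 falling genes. When the 6 libraries were fitted alone, 216 genes rose and 45 fell, which included 180 of the 257 and 20 of the 34. In that fit SMAD7 (adjusted p = 0.126), ANKRD1 (0.198), KLF10 (0.19), MYC (0.0686) and LFNG (0.0672) did not pass. The number of calls depended on single libraries. Without the library at 30, 60 or 70 min, 41, 66 and 67 genes rose and 3 fell. Without the library at 20 min, the shallowest, 117 genes rose and 5 fell, without 90 min 164 and 16, and without 100 min 188 and 21. Both counts were larger without the library at 40 min (297 rose and 68 fell) or 50 min (329 and 53). The reason for these differences was not tested. Scaling by the spike-ins shifted the median of all genes to -0.27, and 11 genes then rose and 24 fell. These included 11 of the 257 and 8 of the 34. All 257 and 34 kept their sign, but the smallest rise was 0.35, more than the shift, so the signs could hardly have changed.

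The rising genes were sorted by what they had done between 0-10 and 20-40 min, a comparison that shares the 20-40 min libraries with the step. Its baseline averages the unstimulated library at 0 min and the library 10 min after serum, in which the earliest genes had already risen. There were 170 newly rising genes, whose earlier change had been below 1.5-fold, 38 genes already induced at least 2-fold, and 49 in between. Newly rising genes numbered 31 without the library at 30 min, 48 without each of 20, 60 and 70 min, and 106 without 90 min. In the newly rising class the median gene stood at 1.08 times its 20-40 min mean at 40 min, 1.48 times at 50 min, 1.90 times at 60 min and 2.02 times at 70 min. The already induced genes ran from 0.654 times that mean at 20 min to 3.39 times at 70 min. For 89 of the 170 newly rising genes, the largest move between neighbouring libraries of the 6 fell from 40 to 50 min, and for another 44 from 50 to 60 min. For the others it fell within the earlier window, 27 from 30 to 40 min and 10 from 20 to 30 min. Genes just inside the threshold were THBS1 and LUZP1 (adjusted p = 0.0494 and 0.0498), and just outside it PIM3 and SDC4 (0.0502 and 0.0512).

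**Figure D1:**
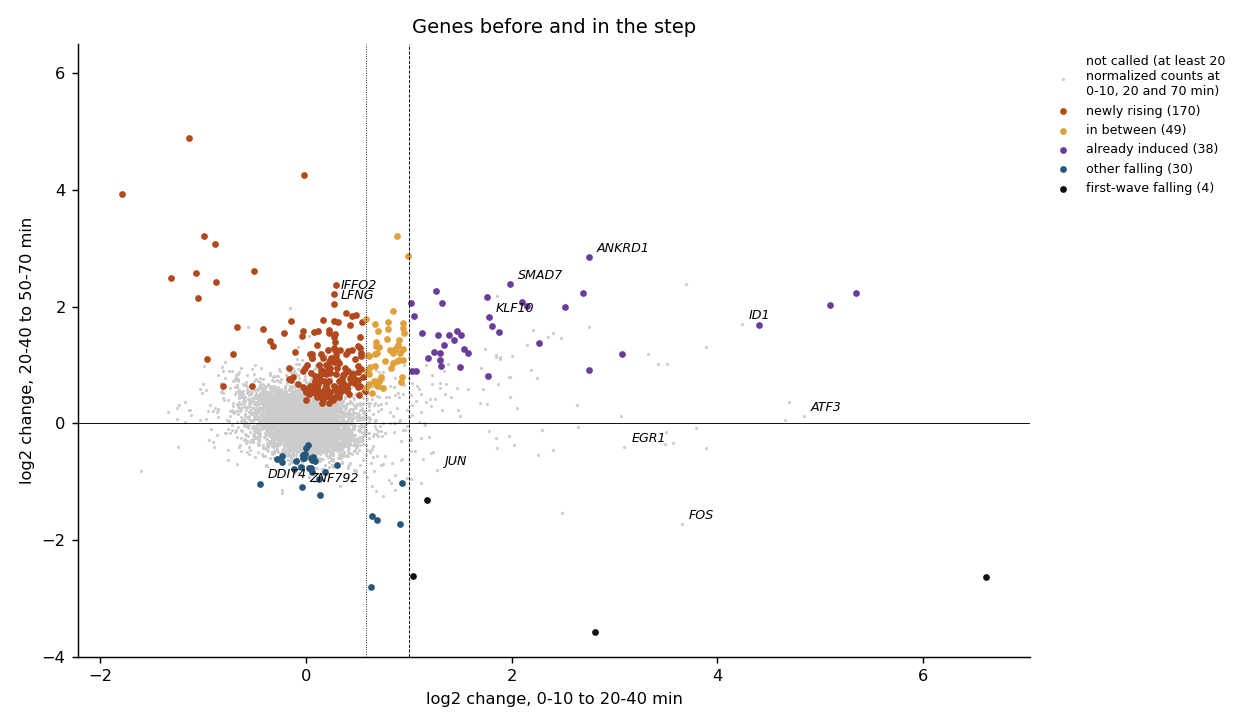
Log2 change from 20-40 to 50-70 min (vertical axis) against log2 change from 0-10 to 20-40 min (horizontal axis), 1 point per gene. Both axes share the 20-40 min libraries. The dotted and dashed lines mark 1.5-fold and 2-fold, the 170 newly rising genes lie left of the dotted line, and FOS lies far to the right of the dashed line and below 0 without passing the window test.

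Newly rising genes are described first, beginning with those of the largest rise. The gene with the largest such rise among well-measured protein-coding genes, IFFO2, which encodes an intermediate filament family protein, held 396, 527 and 737 normalized counts at 20, 30 and 40 min. It then held 1642, 2764 and 3343 at 50, 60 and 70 min, a log2 change of 2.21 ± 0.28 (SE, adjusted p = 0.00953). LFNG, a fucose-extending glycosyltransferase that modifies Notch receptors, stayed at 196 to 226 in the earlier window and then read 452, 816 and 1329. For both genes every later library lay above every earlier library.

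SPHK1, the kinase that makes sphingosine 1-phosphate, held 148 to 254 and then 469, 718 and 932 normalized counts. KLF7, a Krüppel-like transcription factor, held 278 to 426 and then 780, 1309 and 1486. HOXC13, a homeobox factor, held 91.8 to 140 and then 269, 380 and 474. These 3 genes reached log2 changes of 1.76, 1.74 and 1.68, and HOXC13 rose again in the next step. CRISPLD2, a secreted protein, was level at 243 to 273 through 40 min, stood at 392 at 50 min and reached 830 and 1021 at 60 and 70 min.

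VCL, which encodes vinculin, the protein that links integrin adhesions to actin, held 5012, 5126 and 5590 normalized counts in the earlier window, beside a mean of 5092 at 0 and 10 min. At 50, 60 and 70 min it held 8073, 13271 and 14317, a log2 change of 1.18 ± 0.18 (SE, adjusted p = 0.0132). CCND1, which encodes cyclin D1, the G1 cyclin that partners CDK4 and CDK6, held 2620 to 2999 and then 4006, 5461 and 6259. Its log2 change was 0.87 (adjusted p = 0.00857), and it was the only one of 22 tested genes of the G1 cyclin, CDK inhibitor and MYC network list to pass the window test. In a list of 22, 1 call cannot be told apart from the 1.19% that rose over all genes. The median of the list was -0.02, and the curve through all 41 libraries placed 6 members higher and 5 lower.

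**Figure D2:**
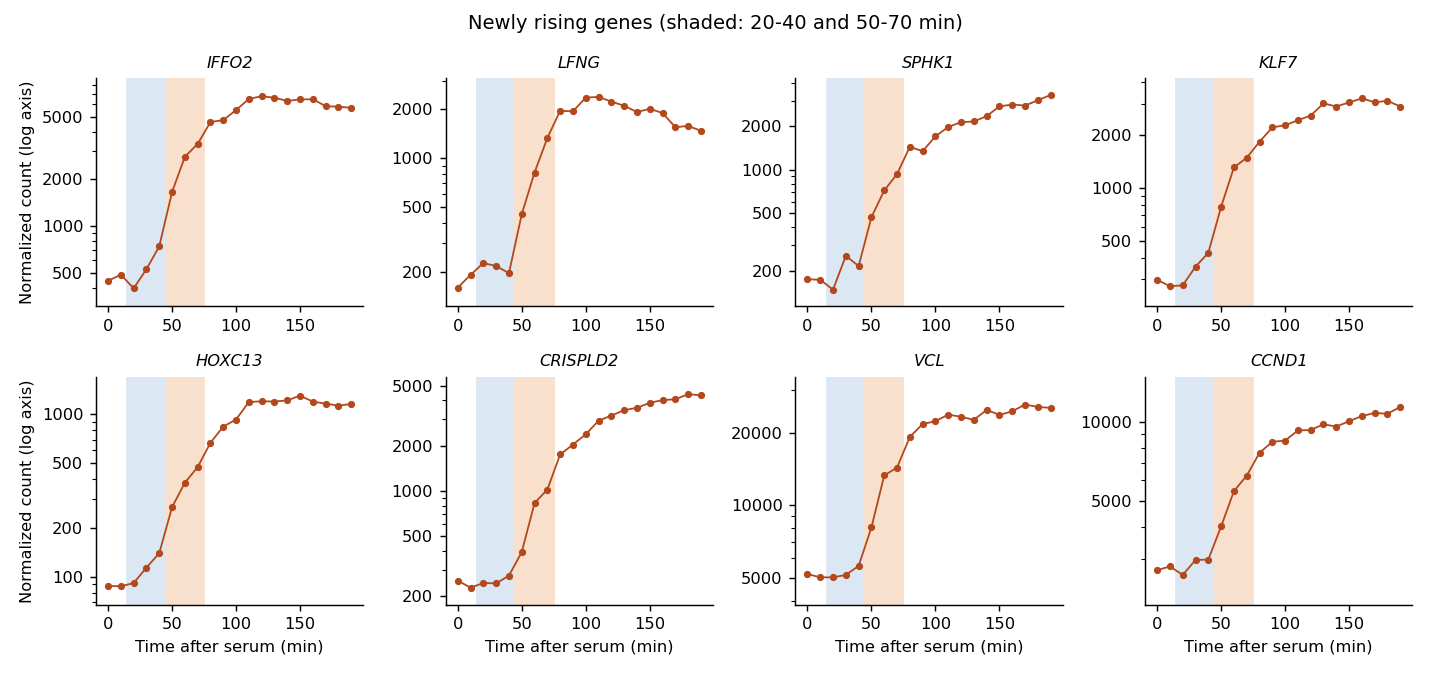
Normalized counts (log axis) against time after serum in min for 8 newly rising genes, 1 point per library from 0 to 190 min, with the 20-40 min window shaded blue and the 50-70 min window orange. VCL stays between 5012 and 5590 through the blue window and reaches 14317 at 70 min, and LFNG runs from 196 at 40 min to 1329 at 70 min.

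Levels in the later libraries differed between the classes. The highest mean of 3 neighbouring libraries came at a median of 170 min for newly rising genes (quartiles 110 and 310 min) and 120 min for already induced genes (90 and 202.5 min). Of the 170 newly rising genes, 36 had this peak by 100 min and 53 at 300 min or later, and 146 stood above their 20-40 min mean at 350 to 400 min. Between 50-70 and 80-100 min, a comparison that shares the 50-70 min libraries with the step, 158 genes rose over all (0.731%) and 29 fell (0.134%). The 257 rising genes included 26 that passed again as higher, 23 of them newly rising, and 0 that passed as lower. These calls rest on few libraries, and 0 genes passed as higher without the library at 60 min or at 90 min, 11 without 100 min, 32 without 50 min, 95 without 20 min and 323 without 80 min.

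Gene lists were counted by how many members passed the test. Over all genes, 1.19% rose and 0.157% fell in the window test, and the curve test placed 10.8% higher and 10.3% lower. In each list where 0 genes fell, 0 to 6 members were lower at an unadjusted p below 0.05, and DESeq2 called 0 to 2 lower. Among immediate early transcription factors, 8 of 33 tested rose and 0 fell, with a median log2 change of 0.45. KLF10, a TGF-beta-inducible repressor, had already moved up by 40 min and then went from 7995 normalized counts at 40 min to 13680, 19361 and 21546 at 50, 60 and 70 min, a log2 change of 1.82 (adjusted p = 0.0344). CSRNP1, a nuclear factor with a cysteine- and serine-rich domain, held 517, 1127 and 1434 and then 2445, 3258 and 3628. MYC held 1397, 2353 and 2766 and then 4275, 5252 and 5566, a log2 change of 1.21 (adjusted p = 0.04). BHLHE40, a repressor that also acts in the circadian clock, held 2578 to 5636 and then 8396 to 11262. NAB2, a corepressor of EGR proteins, belonged to the newly rising genes with 761 to 1005 and then 1407 to 2281. In this list the curve test placed 21 members higher and 3 lower. Of 30 other early response genes, 3 rose (LIF, PHLDA3 and GEM) and 0 fell, with a median of 0.39.

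The strongest list by its median, 1.14, was that of BMP, TGF-beta and Notch feedback genes, of which 5 of 22 rose and 0 fell, and of which the curve test placed 16 higher and 0 lower. SMAD7, the inhibitory SMAD that blocks TGF-beta and BMP receptors, held 199, 462 and 718 normalized counts and then 1648, 2585 and 3162, a log2 change of 2.39 ± 0.38 (SE, adjusted p = 0.0216). ATOH8, a bHLH factor induced by BMP signalling, held 82.9, 118 and 174 and then 368, 666 and 818. HEY1, a Notch target and repressor, held 170 to 326 and then 550 to 823, and JAG1, a Notch ligand, held 1478 to 2200 and then 3585 to 4444.

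The ID genes, which encode inhibitors of bHLH factors and are BMP targets, showed the limit of the window test. ID1 held 2540, 7720 and 10035 and then 17060, 22398 and 26366 normalized counts, so that the windows did not overlap, yet its log2 change of 1.69 had an adjusted p of 0.0989, and within the earlier window alone it had gone from 2540 to 10035. ID3 (log2 change 1.32, adjusted p = 0.143) and HES1, a Notch target repressor (2.19, adjusted p = 0.0826), likewise missed the window test, and the curve test placed all 3 higher. HES1 held 300, 876 and 1468 and then 3198, 4586 and 4447, with a mean of 2605 at 80 to 100 min.

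Secreted growth factors and cytokines were mostly higher by value, with 34 of 36 tested members above 0, a median log2 change of 0.60 and 5 genes that rose. LIF, an IL6-family cytokine, held 479 to 592 and then 952, 1533 and 1875 normalized counts, a log2 change of 1.39 (adjusted p = 0.0218). PDGFB, a subunit of platelet-derived growth factor, was scarce, at 7.11 to 8.96 and then 18.0, 55.0 and 82.3. PTHLH, parathyroid hormone-like hormone, held 26.9 to 42.7 and then 67.6 to 96.7. IL11 read 1.02 to 5.40 and then 12, 16.6 and 20.6, so that its log2 change of 2.49 rests on few reads. EDN1, which encodes the vasoconstrictor endothelin-1, held 130, 357 and 775 and then 1523, 2444 and 2842, and missed the window test (log2 change 2.39, adjusted p = 0.0594), while the curve gave 2.76 (adjusted p = 7.07e-29). IL6 held 399 to 763 and then 1128 to 1500 and also missed it (1.17, adjusted p = 0.0681), with 1.22 by curve (adjusted p = 1.83e-22) and an adjusted p of 0.0439 when the 6 libraries were fitted alone.

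Targets of SRF and its actin-regulated cofactors MRTF include many genes of the cytoskeleton. Of 40 tested, 10 rose and 0 fell, with a median log2 change of 0.25. TUFT1 had the highest log2 change among them, at 1.25, from 437 to 530 and then 783, 1249 and 1380 normalized counts. TPM1, a tropomyosin that coats actin filaments, held 13520, 16168 and 21523 and then 28271, 34849 and 35488, and LIMA1, an actin cross-linker, held 5480 to 8984 and then 11902 to 14396. SRF itself held 1120, 1952 and 2155 and then 2725, 3273 and 3359, a log2 change of 0.83 that missed the window test (adjusted p = 0.0961) and passed the curve test as higher.

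Of 23 tested targets of YAP and TEAD, the effectors of the Hippo pathway, 7 rose and 0 fell, with a median log2 change of 0.72. ANKRD1, a nuclear and sarcomeric ankyrin protein, held 62.7, 173 and 471 normalized counts and then 1113, 2062 and 2178, the largest rise among well-measured protein-coding genes (log2 change 2.85 ± 0.54, SE, adjusted p = 0.043). AMOTL2, an angiomotin that restrains YAP, held 2425 to 4447 and then 6061 to 8799. LATS2, the kinase that phosphorylates YAP, was newly rising, at 728, 762 and 735 and then 1105, 1517 and 1687. CCN1 and CCN2, matricellular targets of the same pathway, had moved earlier and had log2 changes of 1.02 and 1.02 that missed the window test (adjusted p = 0.128 and 0.178), and the curve test placed both higher.

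Genes of the plasminogen system and the pericellular matrix gave 5 that rose and 0 that fell of 28 tested, with a median of 0.13. PLAU, the urokinase plasminogen activator, held 2976 to 4827 and then 6848 to 8965 normalized counts. F3, tissue factor, held 4822 to 8595 and then 13494 to 17667. TIMP3, a metalloproteinase inhibitor, was newly rising, with 9370, 10236 and 11199 and then 17832, 22987 and 23172, and its adjusted p of 0.000873 was among the lowest of the named genes.

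Feedback inhibitors of the MAP kinases split by name. Of 21 tested, 4 rose, 0 fell and the median log2 change was 0.11, and the curve test placed 10 higher and 4 lower. ERRFI1, an inhibitor of the EGF receptor, held 22407 to 36510 and then 48009 to 57939 normalized counts. SPRY4, a Sprouty inhibitor of receptor signalling, held 211 to 297 and then 436 to 528, and DUSP14 and DUSP10, dual-specificity phosphatases, had log2 changes of 0.85 and 0.68. DUSP5, a nuclear phosphatase of ERK, held 2233, 4993 and 6074 and then 7756, 8909 and 8447, and missed the window test (0.91, adjusted p = 0.282), while the lower members by the curve test were DUSP1, DUSP6, SPRY1 and TRIB2.

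Serum-induced kinases had the highest share of members past the window test, 6 of 17, with 0 lower and a median log2 change of 0.67. MAP2K3, which activates p38, held 497, 788 and 1024 and then 1562, 1918 and 1951 normalized counts, and MAP3K14, the kinase of the non-canonical NF-kappaB pathway, held 786 to 1026 and then 1440 to 2490. PLK3, a polo-like kinase, held 322 to 640 and then 969 to 1216. Among NF-kappaB genes, 3 of 22 rose and 0 fell (median 0.07). These were TRAF1, a receptor adaptor (85.1 to 123 and then 198 to 281), TNFAIP3, the A20 inhibitor of the pathway (208 to 286 and then 415 to 538), and NFKBIA, the inhibitor IkappaB-alpha (1498 to 1880 and then 2331 to 2820).

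Among circadian clock genes, 2 of 16 rose and 1 fell. PER2, a core repressor of the clock, held 450, 494 and 581 and then 996, 1170 and 1258 normalized counts (log2 change 1.16 ± 0.11, SE, adjusted p = 0.000873), and BHLHE41 held 85.1 to 136 and then 203 to 277. DBP, a clock-controlled PAR bZIP factor, fell from 284, 259 and 224 to 165, 145 and 142. The remaining lists held few calls. In lists of 11 to 35 genes, 1 call or 0 cannot be told apart from the 1.19% that rose over all genes. ZC3H12A, an endonuclease that degrades inflammatory mRNAs, rose among 15 mRNA decay factors (log2 change 1.27), INSIG1 among 19 cholesterol genes (0.63) and NOP16 among 35 ribosome biogenesis factors (0.56). Of 12 IL6 family receptor and SOCS genes, 13 cytosolic heat shock genes, 19 SR splicing factors and CLK kinases, 11 replication-dependent histone genes and 13 mitochondrially encoded mRNAs, 0 passed the window test. At an unadjusted p below 0.05, 5 of these 68 genes were higher and 7 lower, and DESeq2 called 0. The curve test placed 6, 4, 7, 0 and 0 of these lists higher and 0, 2, 2, 7 and 3 lower, beside 10.8% and 10.3% of all genes.

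**Figure D3:**
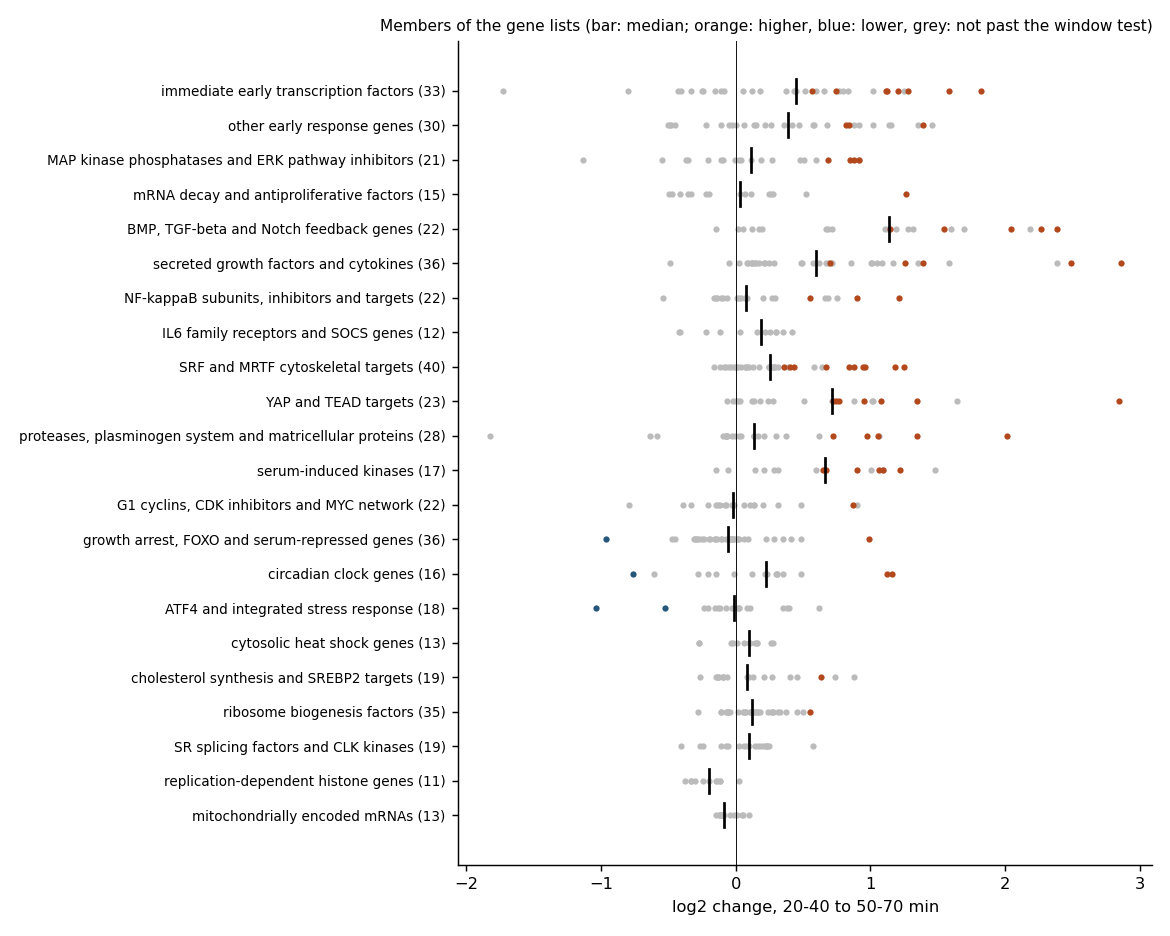
Log2 change from 20-40 to 50-70 min (horizontal axis) for each tested member of 22 gene lists (rows, number tested in brackets), with a black bar at each list's median. Orange points rose and blue points fell in the window test, and grey points did not pass it. The highest median, 1.14, is that of the BMP, TGF-beta and Notch feedback genes.

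Fewer genes fell than rose, except under scaling by the spike-ins, where the falling genes had a median log2 change of -1.04 and the rising genes 0.80. DDIT4, an inhibitor of mTORC1 induced by stress and starvation, held 768, 634 and 545 normalized counts and then 365, 320 and 267, a log2 change of -1.03 ± 0.14 (SE, adjusted p = 0.00508), after a mean of 878 at 0 and 10 min. DDIT3, the stress factor CHOP, held 535 to 622 and then 374 to 442. These were the 2 members that fell of 18 ATF4 and integrated stress response genes, of which 0 rose, beside 0.157% of all genes that fell. The list as a whole was level, with a median log2 change of -0.01 and 9 of 18 members above 0. By the curve test 3 members were higher and 3 lower. BBC3, the pro-apoptotic BH3 protein PUMA and a FOXO and p53 target, held 87.4 to 119 and then 43.6 to 54.9. It was the only gene that fell among 36 growth arrest, FOXO and serum-repressed genes, while IRS2, an insulin receptor substrate, rose (213 to 408 and then 562 to 746). The median of that list was -0.06, and the curve test placed 5 members higher and 8 lower. TXNIP, a thioredoxin-binding inhibitor of glucose uptake, held 5387 to 5675 and then 4467, 4185 and 3495, and missed the window test (log2 change -0.45, adjusted p = 0.297), but was lower by the curve (adjusted p = 2.8e-08) and when the 6 libraries were fitted alone (adjusted p = 0.0411).

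The largest fall among well-measured protein-coding genes was that of ZNF792, a KRAB zinc finger gene, with 195, 204 and 170 and then 137, 74.7 and 65.5 normalized counts (log2 change -1.10, adjusted p = 0.0276), and it fell again to a mean of 33.3 at 80 to 100 min. Of the 23 protein-coding genes that fell, 9 had symbols of zinc finger families (ZNF, ZSCAN, ZFP, ZKSCAN or ZBTB), among them ZNF709, ZNF627, ZSCAN2, ZNF20 and ZNF625-ZNF20, a readthrough gene. Such symbols belonged to 558 of the 14056 tested protein-coding genes. Of these 558, 4 rose, and their median log2 change was -0.02. The curve test placed 103 of them lower (18.5%) and 73 higher, beside 1878 lower and 1806 higher of the 14056. Reads of ZNF20 can also count for ZNF625-ZNF20, so that these 2 of the 9 are not independent. Chromatin regulators BRD3 and PHF12 (log2 changes -0.59 and -0.59) and ACVR2B, an activin receptor (-0.84), fell as well, and most fallers had been level before, with a median earlier log2 change of 0.04 in the 30 genes that were not first-wave genes.

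First-wave genes were taken as those at least 2-fold higher at 20-40 than at 0-10 min. With a mean of at least 100 normalized counts over the 6 libraries there were 118, of which 26 had a lower mean at 50-70 min, 22 rose further and 0 fell in the window test, beside 6 lower at an unadjusted p below 0.05 and 2 lower in DESeq2. The curve test placed 83 of them higher and 10 lower. Most of the first wave stood as high or higher at 50-70 min. The 4 first-wave genes that the window test called lower were RNVU1-21, Metazoa_SRP, SAMD4A-AS1 and MIR4737, short or scarce transcripts with means of 7.41 to 27.2 normalized counts, and copies or a host gene can share the reads of RNVU1-21, Metazoa_SRP and MIR4737. These calls numbered 0 without the library at 30 min, 1 without each of 20, 60 and 70 min, 2 without 90 or 100 min, 8 without 40 min and 18 without 10 min.

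FOS, a subunit of AP-1, held 11554, 16477 and 12281 normalized counts at 20, 30 and 40 min and 7352, 2996 and 1853 at 50, 60 and 70 min. Its windows did not overlap, and its log2 change of -1.73 had an SE of 0.78 and an adjusted p of 0.451, while the curve gave -1.95 ± 0.07 (SE, adjusted p = 4.06e-26). FOS had already risen from 238 at 0 min to 1899 at 10 min (mean 1068), and it went on to a mean of 475 at 80 to 100 min. JUN, its partner, held 8526, 9769 and 7538 and then 6041, 4628 and 4170 (log2 change -0.80, adjusted p = 0.112). The curve gave -0.80 for JUN as well, with an adjusted p of 6.99e-14. JUN was also lower when the 6 libraries were fitted alone (adjusted p = 0.0391).

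For other first-wave genes the library at 50 min still lay within the range of the earlier window. EGR1, a zinc finger factor, held 3238, 4832 and 4251 and then 4018, 2932 and 2382 normalized counts, with log2 changes of -0.41 by window (adjusted p = 0.699) and -0.27 by curve (adjusted p = 0.14). DUSP1, a nuclear MAP kinase phosphatase, held 14338, 24329 and 23228 and then 20479, 14807 and 13087. DUSP6, the cytoplasmic phosphatase of ERK, held 1881, 2372 and 2395 and then 2280, 1615 and 1288, and fell in the next step to a mean of 403 (log2 change -2.09). The curve placed DUSP1 and DUSP6 lower in the step by 0.24 and 0.28 on the log2 scale. IER2, a nuclear protein of unsettled function, held 2979, 4498 and 3474 and then 3262, 2469 and 2290, and NFKBIZ, an atypical IkappaB protein, held 1247, 1603 and 1969 and then 1460, 1029 and 847. The curve log2 changes of these were -0.32 and -0.47 (adjusted p = 0.0039 and 0.00158).

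For a further group of first-wave genes the step was small by value. ATF3, a stress-inducible bZIP factor, held 5778, 10776 and 11194 and then 10920, 10802 and 8577 normalized counts. FOSB, another AP-1 subunit, held 4703, 7052 and 5786 and then 5485, 5148 and 5130, and EGR2 held 775, 1145 and 905 and then 975, 957 and 752. NR4A1, an orphan nuclear receptor, held 2322 to 3965 and then 4153 to 4672, so that its windows did not overlap. None of these 4 genes passed the window test (adjusted p = 0.853, 0.806, 0.928 and 0.622), and of them the curve test placed NR4A1 alone higher (log2 change 0.57, adjusted p = 0.00174). SOCS3, the inhibitor of JAK signalling, KLF6 and ZFP36, which destabilizes AU-rich mRNAs, had log2 changes of -0.22, -0.25 and -0.42 that passed neither test.

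**Figure D4:**
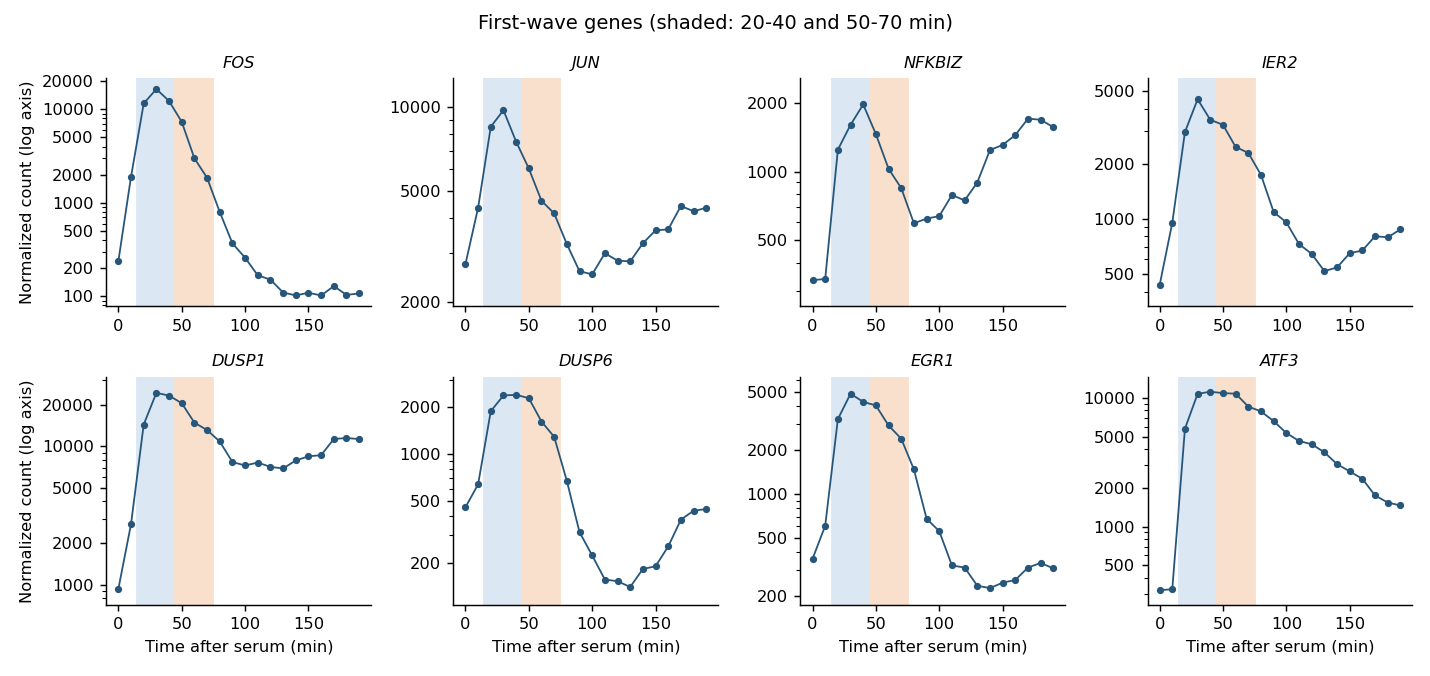
Normalized counts (log axis) against time after serum in min for 8 first-wave genes, 1 point per library from 0 to 190 min, with the 20-40 min window shaded blue and the 50-70 min window orange. FOS runs from 16477 at 30 min to 1853 at 70 min, whereas ATF3 still holds 10802 at 60 min.

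The lncRNAs with the largest rises were NPTN-IT1, ENSG00000283360, MYOSLID, ENSG00000254510, MIR17HG and ENSG00000276850, with log2 changes of 1.52 to 1.89. NPTN-IT1, on the same strand within NPTN, held 62.7, 43.2 and 120 normalized counts and then 302, 337 and 225, with a mean of 129 at 80 to 100 min. NPTN itself held 2150 to 2261 and then 2400 to 2880, missed the window test (log2 change 0.27, adjusted p = 0.186) and was higher by the curve test. In total RNA, unspliced NPTN RNA can add to the counts of NPTN-IT1, and its share was not tested. MIR17HG, the host of the miR-17-92 cluster of microRNAs, held 119, 87.4 and 76.2 and then 186, 312 and 344. MYOSLID, scarce at 7.55 to 17.3 and then 36.3 to 49.9, overlaps KLF7 on the opposite strand, and KLF7 rose by a log2 change of 1.74 beside 1.79 for MYOSLID.

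Of the 6 lncRNAs with the largest falls, ENSG00000261270 and ENSG00000261114 lie on the same strand as HERPUD1 and overlap it. They held 208, 133 and 101 and then 54.1, 46.7 and 37.4 normalized counts, and 139, 86.3 and 70.1 and then 39.1, 37.4 and 21.8. HERPUD1, which acts in the degradation of misfolded endoplasmic reticulum proteins, missed the window test (log2 change -0.21, adjusted p = 0.354). By the curve test HERPUD1 was lower. The 2 lncRNAs also overlap each other, and a read that overlapped 2 genes of 1 strand counted for each. ENSG00000255089, opposite IFITM3, held 163, 70.2 and 88.4 and then 21, 9.34 and 14.3. IFITM3 missed the window test (log2 change -0.16, adjusted p = 0.652) and was lower by the curve test. ENSG00000276533, ENSG00000254676 and ENSG00000285796 had log2 changes of -1.73, -1.23 and -0.62. ENSG00000276533 overlaps RAB27A and ENSG00000254676 overlaps PCF11, each on the same strand. RAB27A and PCF11 had log2 changes of 0.04 and -0.06 and passed neither test. Unspliced RNA of such a host gene can add to the counts of the lncRNA, and its share was not tested.

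Gene span differed by class. The protein-coding first-wave genes with a lower mean at 50-70 min (18 genes) had a median span of 4.88 kb, those with a higher mean (70 genes) 10.6 kb, the already induced rising genes (28) 12.2 kb, those in between (40) 20.9 kb and the newly rising genes (132) 40.0 kb. The median over all 14056 tested protein-coding genes was 33.6 kb. Quartiles of the newly rising genes were 13.6 and 82.3 kb, close to the 13.4 and 81.7 kb of all tested genes. The median number of exons of the canonical transcript was 2.5, 4, 4, 5 and 6.5 in the same order, beside 9 over all. FOS spans 3.4 kb and DUSP1 3.1 kb. Newly rising genes above the upper quartile of their class include VCL (126 kb), CRISPLD2 (101 kb), KLF7 (99.7 kb) and LATS2 (88.6 kb). Short newly rising genes also occurred, such as LIF (6.31 kb) and HOXC13 (7.71 kb). The first-wave set with a higher mean shares members with the already induced genes, and no test was made.

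**Figure D5:**
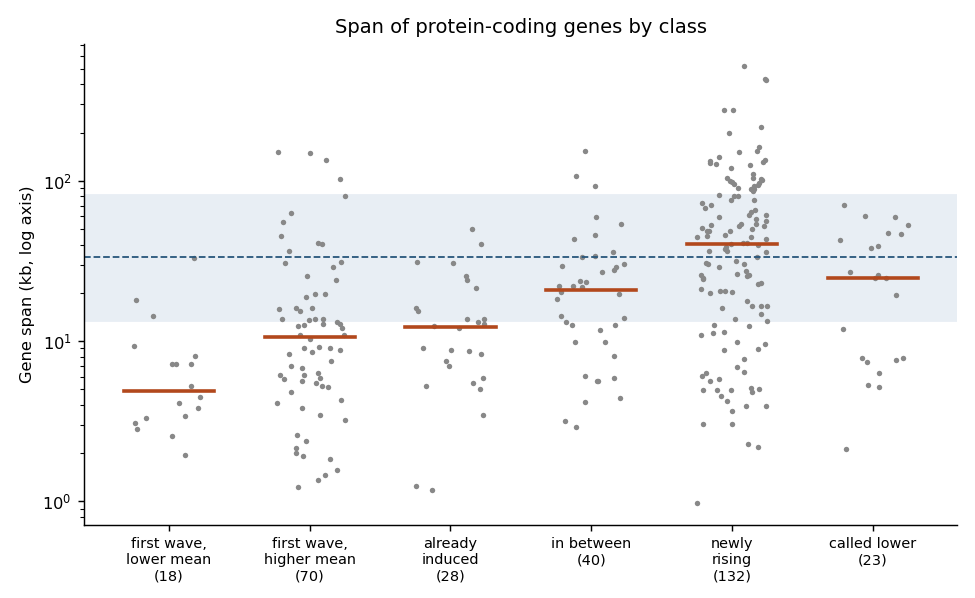
Gene span in kb (log axis) of protein-coding genes by class, 1 point per gene with the class median as an orange bar and the number of genes in brackets. The dashed line and band give the median and quartiles of all tested protein-coding genes (33.6 kb, 13.4 to 81.7 kb). Medians run from 4.88 kb for first-wave genes with a lower mean to 40.0 kb for newly rising genes. The first-wave set with a higher mean shares members with the already induced class.

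The bases after the stop codon of the canonical transcript were searched for AUUUA, a pentamer found in many short-lived mRNAs. At least 3 copies were present in 63.6% of the newly rising genes, 57.1% of the already induced genes, 55.6% of the first-wave genes with a lower mean and 70.0% of those with a higher mean, beside 45.7% of all tested genes and 30.4% of the genes that fell. The nonamer UUAUUUAUU was present in 22.7%, 21.4%, 16.7% and 22.9%, beside 9.36% of all and 13.0% of those that fell. FOS has 5 pentamers in 806 bases and DUSP1 has 4 in 666 bases, whereas IER2 has 0 in 1053 bases and VCL has 2 in 2000 bases. The stretches were longer in the newly rising genes (median 1881 bases, beside 1280 over all), which gives more room for a match.

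Windows of 250 bases before to 50 bases after the start of the canonical transcript were searched on both strands for 6 motifs. The CArG box bound by SRF, 10 bases with CC, then 6 bases of A or T, then GG, was present in 2 of 18 first-wave genes with a lower mean (11.1%) and 7 of 70 with a higher mean (10.0%), beside 1.15% of all tested protein-coding genes. It was present in 3 of 132 newly rising genes (2.27%), 1 of 40 in between and 0 of 28 already induced. The stretches below are shown because they set first-wave genes beside a gene that rose in the step, with the CArG box in capitals, each 5′ to 3′ on the strand of the gene in GRCh38.
EGR1 (chr5:138465339-138465418, plus strand): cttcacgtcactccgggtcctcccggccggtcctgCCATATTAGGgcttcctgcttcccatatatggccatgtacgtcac
EGR2 (chr10:62816393-62816472, minus strand): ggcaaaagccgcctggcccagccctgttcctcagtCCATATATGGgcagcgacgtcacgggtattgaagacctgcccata
DUSP5 (chr10:110497792-110497871, plus strand): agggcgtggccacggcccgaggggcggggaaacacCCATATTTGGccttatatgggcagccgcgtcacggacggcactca
SRF (chr6:43171204-43171268, plus strand): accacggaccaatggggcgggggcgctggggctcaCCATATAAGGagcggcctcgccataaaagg
FHL2 (chr2:105399066-105399145, minus strand): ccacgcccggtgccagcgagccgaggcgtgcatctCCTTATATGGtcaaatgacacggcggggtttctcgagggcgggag

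In EGR1, DUSP5 and SRF a second CArG box, here in lower case, lies downstream of the box in capitals. EGR1 and EGR2 did not pass either test in the step, DUSP5 and SRF passed the curve test as higher, and FHL2, a LIM-domain cofactor, rose in the window test, from 1664 to 2143 and then 2863 to 3769 normalized counts.

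The cAMP response element TGACGTCA was present in 16.7% of the 18 first-wave genes with a lower mean (3 genes), 4.29% of those with a higher mean, 4.55% of the newly rising genes and 0 of the 40 in between, beside 3.32% of all tested protein-coding genes. The AP-1 site TGANTCA was present in 5.30% of newly rising and 10.7% of already induced genes (all, 4.34%), the EGR site GCGNGGGCG in 23.5% and 7.14% (all, 16.8%), the NF-kappaB motif in 3.79% and 14.3% (all, 6.79%) and the E-box CACGTG in 9.85% and 14.3% (all, 9.84%). Among the 40 genes in between, 30.0% had the EGR site, 7.5% the AP-1 site, 10.0% the NF-kappaB motif and 2.5% the E-box. With 28 already induced genes, 1 gene is 3.57% of the class, and a match is no evidence of binding.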

How the data were processed

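The authors trimmed reads with cutadapt 1.11, aligned them to GRCh38 with STAR 2.5.2a and deposited raw counts per gene from featureCounts on GENCODE 29 exons. Strand was used, and a read that fitted several places or genes added to each. The deposited values normalized with DESeq2 1.24.0 were not used here. Separate and joint count tables were the same for 41 of 41 libraries. Symbols, classes and positions came from GENCODE 44 on the same genome (58207 genes, 99.2% matched), and 45 copies of pseudoautosomal genes on Y and 77 spike-in sequences were left out of the tests.

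After the filter of the study, which asks for more than 10 counts in any library and more than 2 at 3 successive times, 21629 genes were left. Counts of the 11 libraries from 0 to 100 min were fitted in edgeR 4.0.16 (R 4.3.3) by the robust quasi-likelihood method with 4 windows (0-10, 20-40, 50-70 and 80-100 min) and median-of-ratios size factors, which leaves 7 residual degrees of freedom. Normalized counts are counts divided by those size factors. The curve is a cubic spline (natural, 7 degrees of freedom) in time over 41 libraries, planned as an alternative. Both fits were tested on simulated data with a fixed dispersion and, for the window fit, no drift within windows. The simulation therefore cannot show how the window test behaves under the drift of the real libraries. Members and lists were chosen with earlier results of these data known.

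Named genes come from the top 15 rises and top 15 falls of protein-coding genes (mean of at least 100 normalized counts over the 6 libraries, called well-measured), 6 lncRNAs each way (mean of at least 20), up to 4 genes past the test of each of 24 lists, and the 6 newly rising genes with the largest rise. First-wave genes and others that missed the window test, and NAB2, JAG1, FHL2, NPTN and HERPUD1, were named after their values were seen. The RefSeq promoter table (GRCh38.p14) held 11052 of 14056 tested protein-coding genes (78.6%), too few for a check of shares, so windows were read from the genome instead, a choice made after seeing the data. Some items are not reported here.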

Additional observations from a re-analysis of the deposited data

How the results depend on the processing

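All 81 named genes that passed the window test kept their direction in every alternative in which they were tested. The windows of every called gene did not overlap, so leaving out a library or changing the threshold could hardly have turned a direction. Many lost their call, 71 with spike-ins, 68 without 30 min, 62 at an adjusted p below 0.01, 61 without 60 min, 54 without 70 min, 37 without 20 min and 27 with the 6 libraries alone. Higher and lower genes numbered 782 and 353 with all 41 libraries in 10 windows, 2333 and 2238 with the curve, 909 and 188 without the low count filter, 411 and 86 with DESeq2, and 56 and 3 at an adjusted p below 0.01. With a mean of at least 50 normalized counts required, 20 genes were lower. Newly rising genes numbered 608, 2101, 724, 277 and 41 in the first 5 of these, and first-wave genes falling 20, 44, 29, 9 and 1, with 0 at the mean of 50, 2 with TMM, 2 with library size and 18 with 0 min alone as baseline. Spike-in size factors shifted the median log2 change of all genes to -0.27, and 11 genes were higher (6 newly rising, 31.4% of calls higher against 88.3% in the main analysis), 24 lower and 9 first-wave genes falling. All 257 rising genes stayed above 0 under that scaling, which their smallest rise of 0.35, larger than the shift, made near certain. Leaving out 1 library at a time gave 41 to 329 higher, 3 to 68 lower, 31 to 238 newly rising and 0 to 18 first-wave genes falling. Where a library was left out of a window of 3, the other 2 carried its mean. The 0-10 min window has 2 libraries, so leaving out 1 of them left a single library there. Among genes that passed neither test, the log2 change turned for FOSB (0.077 with the curve), ATF3 (-0.13 with spike-ins) and EGR2, and without 1 library at a time it ran from -0.289 to 0.0014 for FOSB, -0.12 to 0.285 for ATF3 and -0.1995 to 0.0814 for EGR2. The 6 libraries alone (216 higher, 45 lower) have no earlier baseline and give no classes. No paired analysis was possible because each time point has 1 library. Depth limits scarce transcripts most in the 20 min library. The CArG box share of all genes with a mean of at least 50 was 1.04%, and 65.4% of newly rising genes there had at least 3 pentamers. The causes of these differences were not tested.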
